A study of Mus musculus with 8 samples.

Results

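The genes of cholesterol and fatty acid synthesis were followed in mouse cerebellar cultures treated with thyroid hormone. The set of 32 listed genes holds 18 enzymes of the sterol pathway, 6 regulators and carriers of sterols, and 8 enzymes of fatty acid synthesis. A gene was taken where the platform's probe table gives a probe-set that single gene symbol, and it was represented by the brightest of its probe-sets, judged by mean log2 signal over the 8 arrays. This found 31 of the 32 genes among the 18193 genes with such a probe-set. Acat2 was not analysed here. All 31 passed the filter on low signal, as did 10194 of the 18193 genes. The rule used level alone, not treatment or time.

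Primary cultures of cerebellar neurons from Wild-type newborn mice were kept for 48 h in serum-free medium and then received T3, the active thyroid hormone, at 0.1 µM for 6, 16, 24 or 48 h, or were left untreated for the same times. Each of these 8 conditions has 1 array, and the methods state that the T3 and untreated cultures of a time point came from the same cell batch. The labels give pups of P4 to P7 and the methods younger ones. Cerebella were pooled and both groups were kept with B27, a supplement whose published recipe itself contains T3, and both went through the same changes of medium. No separate cultures stand behind a condition, so p-values measure only the spread between these 8 samples. In such bulk samples, fewer cells of a type and less RNA per cell cannot be told apart.

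Cells build cholesterol from acetyl-CoA through mevalonate, isoprenoids, squalene and lanosterol. Transcription of these enzymes is driven mainly by SREBP-2, the product of Srebf2, and that of fatty acid enzymes mainly by SREBP-1c, a product of Srebf1. When sterols are plentiful, the Insig proteins hold Scap and the SREBP precursors in the endoplasmic reticulum. The brain makes nearly all of its own cholesterol, and in liver Scd1, Fasn and their regulator Srebf1 are among the lipid genes known to respond to T3.

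SREBP factors act with NF-Y, which binds CCAAT boxes near start sites, and the promoters of 4 genes are shown because they span the pathway and differ in these motifs. Of the 31 genes, 24 have a promoter in the RefSeq table of build GRCm38.p6, with 250 bases before and 50 after the annotated start. Capitals mark CCAAT, read ATTGG on the opposite strand, and TCACNCCAC, the core of a sterol regulatory element, on either strand. The motifs did not overlap in these windows. Hmgcs1 lies at chr13:119690101-119690400 on the plus strand, Idi1 at chr13:8885356-8885655 on the plus strand, Cyp51 at chr5:4104648-4104947 on the minus strand and Elovl6 at chr3:129532136-129532435 on the plus strand.
Hmgcs1: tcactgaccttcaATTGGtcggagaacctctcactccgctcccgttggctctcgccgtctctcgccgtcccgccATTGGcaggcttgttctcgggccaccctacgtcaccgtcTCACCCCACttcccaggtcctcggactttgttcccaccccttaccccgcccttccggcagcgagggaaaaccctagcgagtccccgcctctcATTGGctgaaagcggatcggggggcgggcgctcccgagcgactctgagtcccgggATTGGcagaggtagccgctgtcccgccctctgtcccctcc
Idi1: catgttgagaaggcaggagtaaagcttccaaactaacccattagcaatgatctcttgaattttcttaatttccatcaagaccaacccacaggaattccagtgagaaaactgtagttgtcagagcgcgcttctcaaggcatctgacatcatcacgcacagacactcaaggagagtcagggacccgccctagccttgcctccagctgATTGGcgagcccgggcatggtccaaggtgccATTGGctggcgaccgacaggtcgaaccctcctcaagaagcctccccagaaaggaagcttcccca
Cyp51: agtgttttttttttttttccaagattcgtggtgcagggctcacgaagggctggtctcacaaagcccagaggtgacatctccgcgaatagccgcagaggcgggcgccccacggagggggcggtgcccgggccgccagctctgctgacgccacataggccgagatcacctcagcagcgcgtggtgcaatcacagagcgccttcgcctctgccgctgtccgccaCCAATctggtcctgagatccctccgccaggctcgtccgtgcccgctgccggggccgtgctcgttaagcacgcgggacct
Elovl6: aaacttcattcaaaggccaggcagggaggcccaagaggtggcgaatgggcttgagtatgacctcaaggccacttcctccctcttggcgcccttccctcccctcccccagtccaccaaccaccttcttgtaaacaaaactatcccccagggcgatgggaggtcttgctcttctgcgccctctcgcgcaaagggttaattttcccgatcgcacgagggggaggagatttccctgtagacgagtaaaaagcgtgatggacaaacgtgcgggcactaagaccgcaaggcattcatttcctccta

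The Hmgcs1 window holds 4 CCAAT boxes and 1 TCACNCCAC match, Idi1 holds 2 CCAAT boxes, Cyp51 holds 1, and the Elovl6 window has neither motif. Counting a gene once over all its promoters, CCAAT was found in 14 of 14 sterol enzymes (100%), in 4 of 5 regulators (80%) and in 2 of 5 fatty acid enzymes (40%), against 41.06% of the 27025 genes in the table. TCACNCCAC was found in 1 of the 24 genes (4.17%), Hmgcs1, against 1.44% of all genes. A match of letters is a description of the window and not a binding site.

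The deposited values are MAS5 signals on a linear scale, scaled to a trimmed mean of 100 on each array, with medians of 14.8 to 17.7. Tests ran on the 18015 brightest probe-sets (mean log2 signal of at least 4.95, or a signal of 31). As a check of the treatment, Klf9, a T3 target, had signals of 3100, 2737, 3131 and 2268 with T3 at 6, 16, 24 and 48 h, against 1220, 1508, 1235 and 1498 in untreated cultures. Neuron markers passed the filter for 8 of 8 genes, with summed signals of 3174 to 11055 with T3 and 2357 to 11617 in untreated cultures. Glial and meningeal markers passed the filter too (9 of 10 astrocyte, 5 of 10 oligodendrocyte and 6 of 6 fibroblast genes). The oligodendrocyte genes Mog, Mag and Sox10 lay below the filter level on every array. The untreated 24 h array stood apart in these lists, with summed astrocyte signals of 3860 with T3 and 6579 untreated at 24 h, and summed oligodendrocyte signals of 900.5 with T3 and 2500 untreated.

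Signals of the sterol pathway differed between time points, whose hours and cell preparation cannot be told apart. The T3 test called 0 of the 31 genes, but also 0 of all 18015 probe-sets. Signals were highest at 16 or 24 h for 29 of the 31 genes (9 at 16 h and 20 at 24 h, by the mean log2 of T3 and untreated arrays). They were lowest at 48 h for 19 and at 6 h for 11. Of all 18015 probe-sets, 17.2% were highest at 16 h and 20.2% at 24 h. Idi1, which interconverts the isoprenoid building blocks, and Hmgcs1, which makes HMG-CoA at the entry to the mevalonate pathway, give the pattern on all arrays.

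At 6, 16, 24 and 48 h, Hmgcs1 had signals of 1951, 2862, 2992 and 1995 with T3, against 2427, 3095, 3055 and 1942 in untreated cultures. The signals of Idi1 were 423.4, 876.5, 1045 and 302.5 with T3, against 472.6, 749.3, 980.1 and 253.3 in untreated cultures. In both genes the 4 arrays of 16 and 24 h lay above the 4 arrays of 6 and 48 h, and neither treatment had the higher signal throughout. The mean log2 signal at 16 and 24 h exceeded that at 6 and 48 h by 0.54 for Hmgcs1 and by 1.36 for Idi1, which is 2.57-fold.

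This non-overlap was counted after the pattern had been seen. It held for 13 of the 31 genes (41.9%), against 205 of 18015 probe-sets (1.14%). The 13 comprise 10 of 17 sterol enzymes, 0 of 6 regulators and 3 of 8 fatty acid enzymes, and 0 of the 31 genes had the opposite order, against 1.58% of probe-sets. On the T3 arrays alone it held for 22 genes, against 8.44% of probe-sets, and on the untreated arrays alone for 20 genes, against 7.07%. The methods do not say whether the time points shared a cell batch, so time and preparation cannot be told apart.

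**Figure D1:**
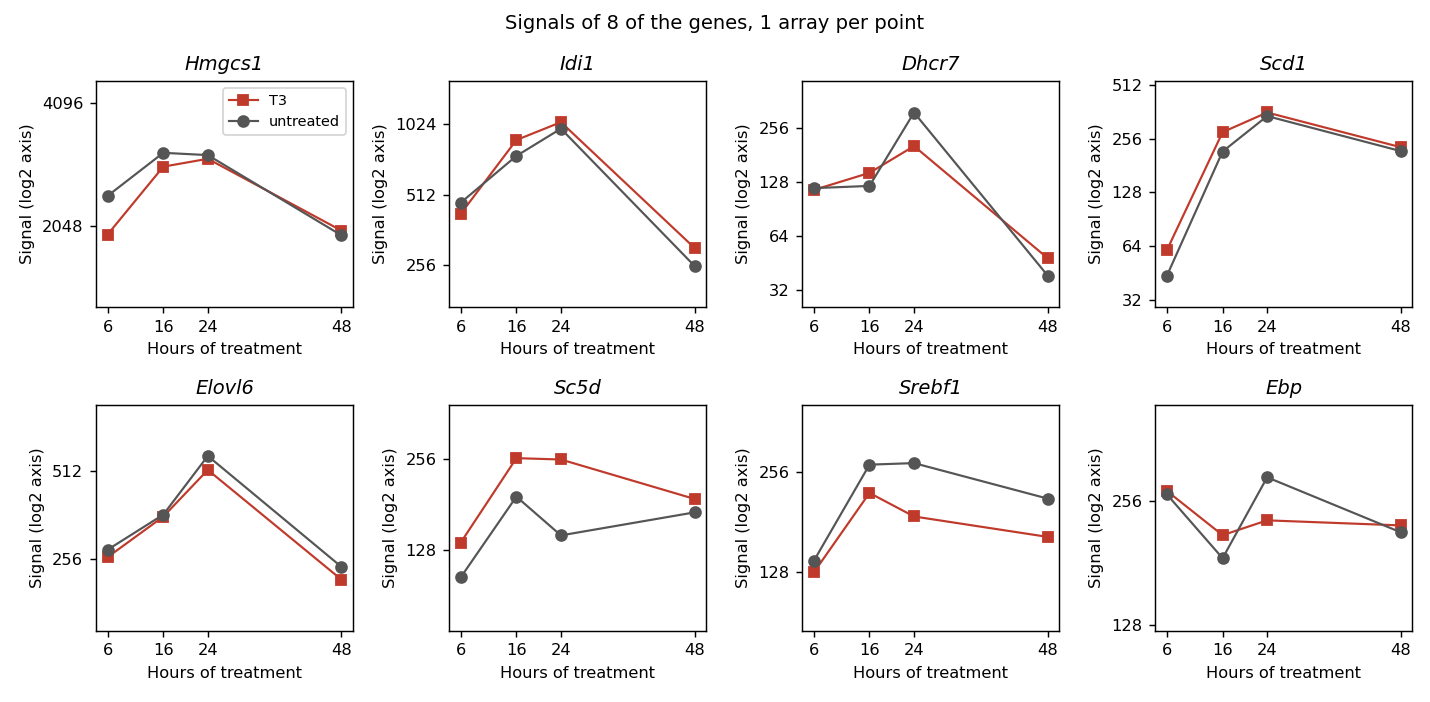
Signal (log2 axis) of 8 genes against hours of treatment, with T3 as red squares and untreated cultures as grey circles, 1 array per point. Hmgcs1, Idi1, Dhcr7 and Elovl6 are higher at 16 and 24 h than at 6 and 48 h under both treatments, Scd1 is low only at 6 h, Sc5d is higher with T3 and Srebf1 lower with T3 at each time, and Ebp stays between 185.5 and 291.5.

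Of the 11 enzymes from squalene onward, 7 had all arrays of 16 and 24 h above the rest, against 1.14% of all probe-sets. Fdft1, which forms squalene, had signals of 1055, 1299, 1326 and 623.7 with T3 at 6, 16, 24 and 48 h, against 1094, 1421, 1371 and 592.0 in untreated cultures. Sqle, the squalene epoxidase and a slow step of the pathway, had signals of 618.8, 1320, 1224 and 842.3 with T3, against 711.9, 1311, 1378 and 821.5 in untreated cultures. In both genes T3 and untreated arrays of a time point lay close together, and the 16 and 24 h arrays were the upper 4 of the 8.

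Cyp51, the demethylase that acts on lanosterol, had signals of 248.2, 553.5, 642.7 and 263.6 with T3 at the 4 times, against 314.0, 538.3, 422.7 and 239.1 in untreated cultures. Msmo1, which removes methyl groups further on, had 376.0, 991.6, 1045 and 562.6 with T3, against 417.1, 838.9, 722.6 and 563.6 untreated. Both genes were higher with T3 at 24 h (1.52-fold for Cyp51 and 1.45-fold for Msmo1), and neither had the same sign at all 4 times. The other Cyp51 probe-set that passed the filter gave a log2 difference of 0.13 at 24 h, against 0.60 for the brightest.

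Nsdhl, the next enzyme of demethylation, had 204.4, 387.9, 387.7 and 204.8 with T3, against 191.1, 362.1, 570.6 and 213.7 untreated. Dhcr7, which reduces the last double bond to give cholesterol, had 115.3, 143.6, 202.7 and 47.9 with T3, against 118.0, 121.4, 312.1 and 38.3 untreated. Dhcr7 thus had its lowest signals at 48 h and its highest at 24 h under both treatments. The difference between middle and outer times was 1.05 on the log2 scale for Nsdhl and 1.37 for Dhcr7. Fdps, which makes farnesyl diphosphate, and Lss, the lanosterol synthase, complete the 10 enzymes, with log2 differences of 1.27 and 0.99. Fdps had signals of 68.8, 127.8, 174.4 and 39.3 with T3 at the 4 times, against 65.1, 85.8, 173.9 and 56.5 untreated. Those of Lss were 153.0, 262.6, 303.2 and 109.8 with T3, against 161.5, 313.5, 267.6 and 158.6 untreated. In both genes the lowest signal was that of the T3 culture at 48 h.

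Of the other 7 sterol enzymes, 6 were also higher on average at 16 and 24 h, by log2 differences of 0.42 to 0.91, with groups that overlapped. These are Mvk, Pmvk and Mvd, the kinases and the decarboxylase of mevalonate, and Tm7sf2, Hsd17b7 and Sc5d, a reductase, a ketosteroid reductase and a desaturase of late sterols. Pmvk had signals of 125.9, 133.4, 201.6 and 94.6 with T3 at 6, 16, 24 and 48 h, against 102.2, 118.0, 241.9 and 95 untreated. The signals of Hsd17b7 were 168.5, 166.7, 166.5 and 81.1 with T3, against 180.6, 184.7, 251.6 and 71.0 untreated. Pmvk was thus highest at 24 h under both treatments, while Hsd17b7 lay between 166.5 and 168.5 with T3 up to 24 h and was lowest at 48 h under both. Ebp, the sterol isomerase, was the exception, with a log2 difference of -0.10 and signals of 211.0 to 270.0 with T3 and 185.5 to 291.5 untreated. Over the 17 sterol enzymes the median difference was 0.81 (1.76-fold), with 16 of 17 above 0. The median over all 18015 probe-sets was 0.03.

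**Figure D2:**
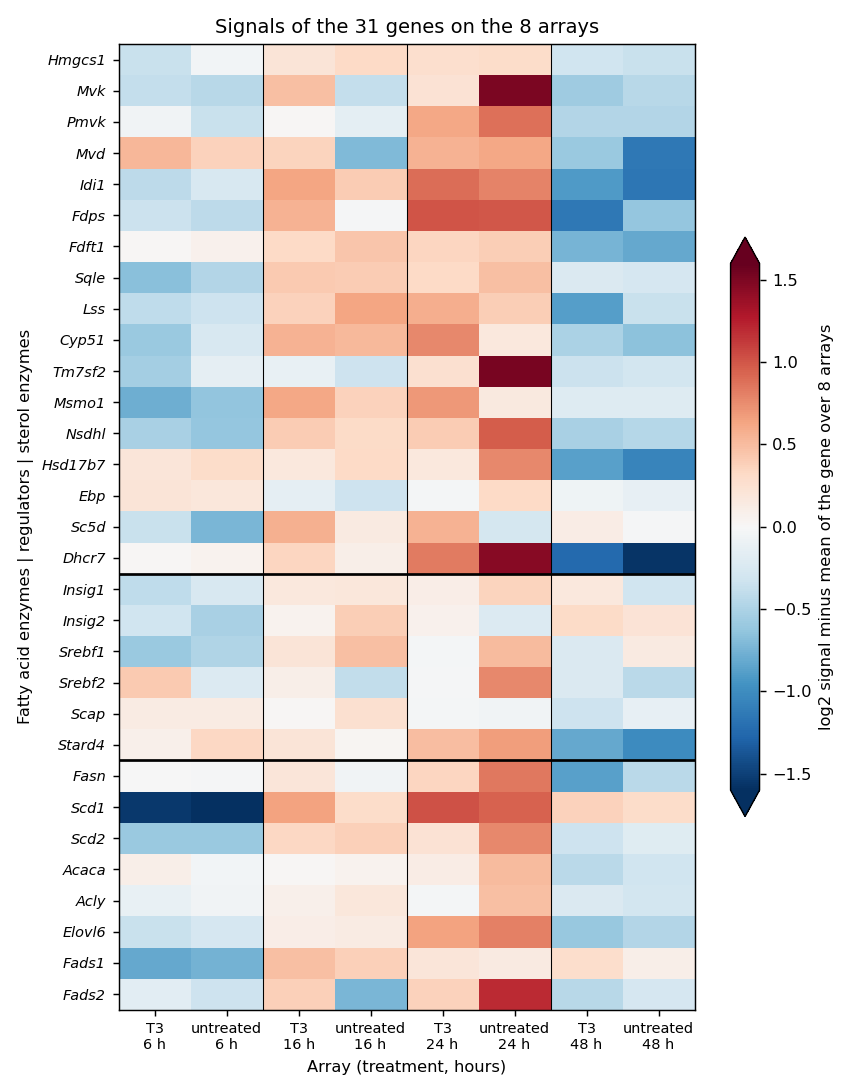
Log2 signal of each of the 31 genes minus its mean over the 8 arrays, with arrays in time order and T3 left of untreated at each time. Black lines separate 17 sterol enzymes, 6 regulators and 8 fatty acid enzymes, and most genes are red in the 4 middle columns and blue at 48 h, with the darkest red for Mvk, Tm7sf2 and Dhcr7 on the untreated 24 h array.

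Among the fatty acid enzymes the median difference between middle and outer times was 0.63 (1.55-fold), with 8 of 8 above 0, and among the regulators it was 0.32 (1.25-fold), with 6 of 6 above 0. The difference between these lists was not tested. With each array centred on its own median, the median of all probe-sets was -0.11, and those of sterol enzymes, regulators and fatty acid enzymes were 0.68 (16 of 17 above 0), 0.18 (5 of 6) and 0.50 (8 of 8). Scd2, the main brain stearoyl-CoA desaturase, had signals of 1297, 2447, 2295 and 1551 with T3 at 6, 16, 24 and 48 h, against 1295, 2532, 3308 and 1700.3 in untreated cultures. Elovl6, which lengthens palmitate, had 259.4, 357.6, 517.6 and 217.2 with T3, against 275.1, 363.2, 578.2 and 240.3 untreated. Acly, which supplies cytosolic acetyl-CoA to both pathways, was the third fatty acid enzyme without overlap, with a smaller log2 difference of 0.36. Its signals were 957.6, 1104, 1019 and 884.0 with T3, against 999.3, 1177, 1453 and 846.0 untreated, so that the T3 array of 24 h lay only just above the untreated array of 6 h.

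Scd1, the related desaturase, took another course. Its signals were 60.9, 278.3, 358.6 and 229.2 with T3, against 43.8, 216.9, 342.3 and 218.0 in untreated cultures, so that both 6 h arrays lay far below the other 6. Fads1, the delta-5 desaturase of polyunsaturated fatty acids, was likewise lowest at 6 h, with signals of 379.7, 938.5, 770.9 and 819.5 with T3 at the 4 times, against 399.2, 873.6, 740.3 and 715.5 untreated. Fasn, the fatty acid synthase, and Acaca, which makes its malonyl-CoA substrate, were lowest at 48 h instead. Fasn signals at 6, 16, 24 and 48 h were 320.0, 367.0, 406.1 and 175.7 with T3, against 314.6, 306.6, 575.4 and 236.7 untreated. Those of Acaca were 155.4, 148.4, 158.9 and 108.5 with T3, against 141.9, 151.3, 207.7 and 116.9 untreated. By the mean of both treatments, 7 of 8 fatty acid enzymes were highest at 24 h, against 20.2% of all probe-sets. With T3 alone Scd2, Acly, Fads1 and Fads2 were highest at 16 h, and Fasn, Scd1, Acaca and Elovl6 at 24 h. By the mean of both treatments, the lowest time was 6 h in 3 enzymes and 48 h in 5.

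**Figure D3:**
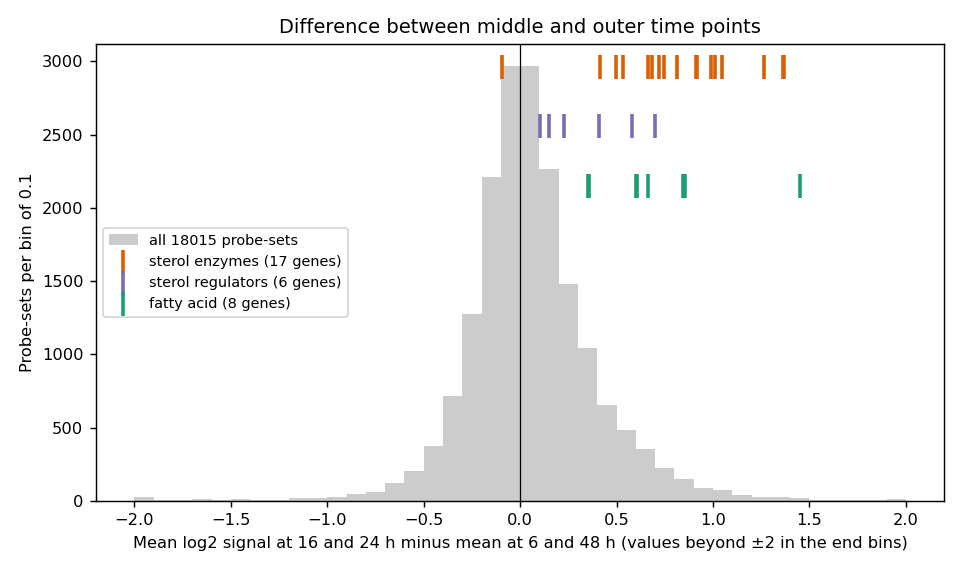
Number of probe-sets (grey bars, bins of 0.1) by mean log2 signal at 16 and 24 h minus that at 6 and 48 h, for all 18015 probe-sets, with each gene of the 3 lists as a coloured tick. The grey bars centre near 0 (median 0.03), while 16 of 17 sterol enzymes, 6 of 6 regulators and 8 of 8 fatty acid enzymes lie to the right of 0.

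By limma's F test for any difference between time points, also chosen after the pattern had been seen, 23 of the 31 genes passed at an adjusted p of 0.05, against 47.3% of all probe-sets. These were 15 of 17 sterol enzymes, 3 of 6 regulators (Insig2, Srebf1 and Stard4) and 5 of 8 fatty acid enzymes. Without the 6 h pair 16 genes and 17.5% of probe-sets passed, and without the 48 h pair 16 genes and 25.5%. The test treats T3 and untreated arrays of the same hours as separate although they share a cell batch. With only a straight line over log2 hours, 1 of 31 genes rose, Scd1, by 0.77 on the log2 scale for each doubling of time (SE 0.22, adjusted p = 0.046), against 10.6% of probe-sets that rose, and 0 of 31 fell, against 8.56%. The call was lost when this batch was allowed for (adjusted p = 0.092 with an estimated correlation, and 0.258 with time points averaged). Before adjustment, 3 of 31 genes had a p below 0.05, Fads1, Insig2 and Scd1, against 37.7% of probe-sets. When the 6 h arrays were left out, the slope of Scd1 was -0.15 (adjusted p = 0.84).

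Other probe-sets of the same genes were read for the pattern. Of 25 further probe-sets that passed the filter, 11 had all 16 and 24 h arrays above the rest, against 1.14% of all probe-sets. They belong to 9 genes, 5 of them among the 13 (Elovl6, Hmgcs1, Idi1, Lss and Scd2) and the other 4 being Fads1, Fads2, Hsd17b7 and Sc5d. For Cyp51, Fdft1 and Acly no further probe-set that passed the filter had it. Mvd, Fdft1, Lss, Hsd17b7 and Acly are read by brightest probe-sets of a type that can bind related transcripts.

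Cell type markers moved with time as well. Fibroblast and meningeal signals summed to 851.6, 6878, 7503 and 11335 with T3 at 6, 16, 24 and 48 h, against 1521, 8379, 5284 and 11565 in untreated cultures. Neuron signals summed to 11055, 5413, 8326 and 3174 with T3, against 11460, 4856, 11617 and 2357 untreated. Neither list has the order of the sterol enzymes, whose signals summed to 6169, 9875, 10509 and 5744 with T3, against 6874, 9681, 10698 and 5575 untreated. Microglial signals ran the other way, summing to 752.4, 267.4, 100 and 1225 with T3, against 570.6, 218.1, 118.0 and 935.1 untreated. Of the 6 listed microglial genes 4 passed the filter. All 4 were lower on all 16 and 24 h arrays than on all 6 and 48 h arrays, against 1.58% of all probe-sets. The part of these cells in the result was not tested.

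For T3 itself, 0 of 31 genes passed limma's test over the 4 pairs, against 0 of 18015 probe-sets (0%). At an unadjusted p under 0.05 there were 2 genes, Sc5d and Srebf1, and 985 probe-sets. The smallest adjusted p of any probe-set was 0.154, that of the T3 target Dbp (mean log2 difference 1.33). Klf9 did not pass either (mean log2 difference 1.04, adjusted p = 0.306). The test thus did not call these T3 targets, although their mean differences exceeded 2-fold. Over the alternatives run, the adjusted p of the 31 genes stayed between 0.646 and 1. A T3 effect that changed with the hours was called for 0 of 31 genes, against 0 of all probe-sets (0%), with 0 genes and 245 probe-sets at an unadjusted p under 0.05.

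Sc5d, the desaturase that places the ring double bond of late sterols, had signals of 135.4, 257.0, 254.4 and 188.6 with T3 at 6, 16, 24 and 48 h, against 104.0, 191.9, 143.0 and 170.3 in untreated cultures. It was higher with T3 in 4 of 4 pairs, by log2 differences of 0.38, 0.42, 0.83 and 0.15 (mean 0.45, SE 0.14, adjusted p = 0.815). Its other probe-set that passed the filter gave a mean of 0.15. Srebf1 had signals of 127.2, 220.9, 187.6 and 162.8 with T3, against 137.8, 268.9, 271.8 and 212.4 untreated. It was lower with T3 in 4 of 4 pairs, by log2 differences of -0.12, -0.28, -0.53 and -0.38 (mean -0.33, SE 0.12, adjusted p = 0.815). Neither gene passed the test over all probe-sets.

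A constant sign at all 4 times was found for 4 of 31 genes (12.9%), against 15.1% of all probe-sets. Scd1 was higher with T3 in 4 of 4 pairs, by log2 differences of 0.48, 0.36, 0.07 and 0.07 (mean 0.24, SE 0.13, adjusted p = 0.815), and Elovl6 was lower in 4 of 4, with a mean of -0.10 (SE 0.10). The share of genes with 1 sign is thus near that of all probe-sets. The other Scd1 and Elovl6 probe-sets that passed the filter did not keep 1 sign. Their log2 differences included -0.03 at 6 h for Scd1 and 0.31 at 48 h for Elovl6.

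**Figure D4:**
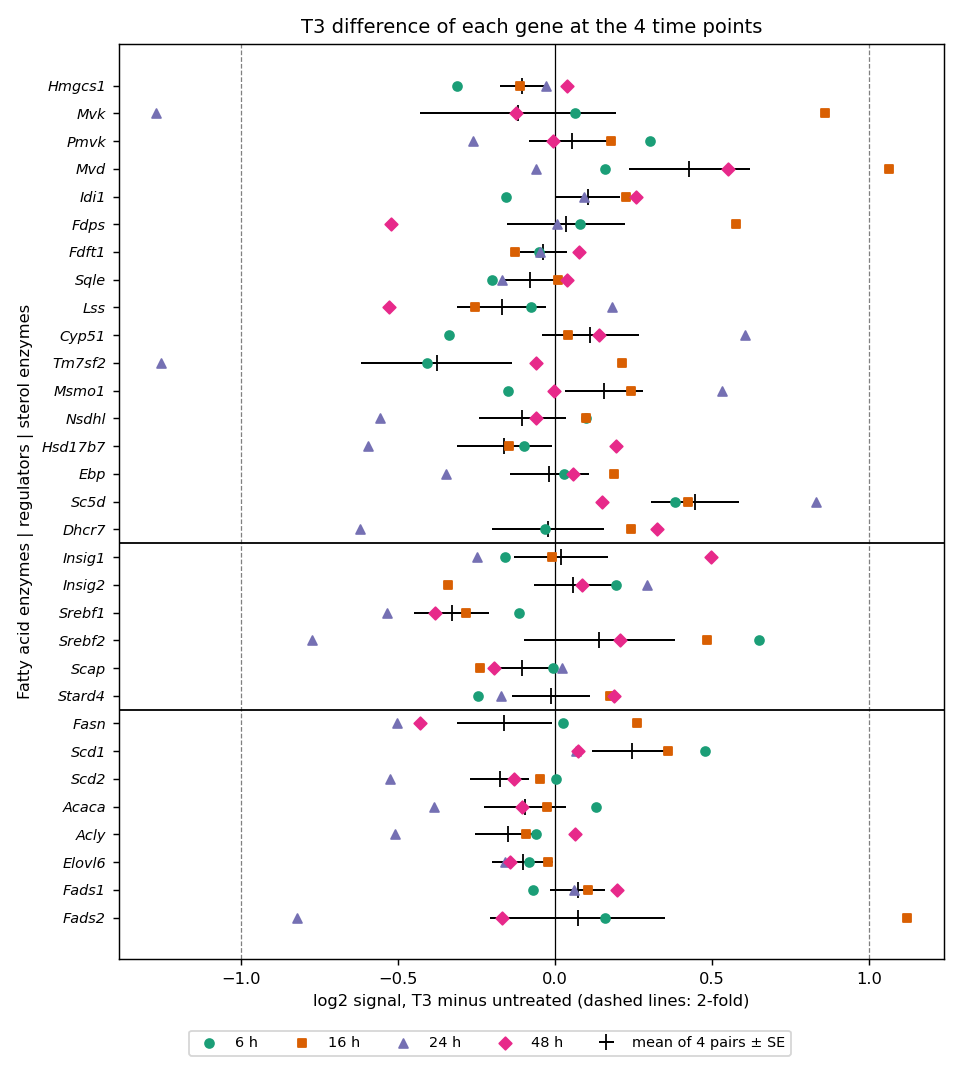
Log2 signal with T3 minus untreated for each of the 31 genes at 6, 16, 24 and 48 h (1 pair of arrays per symbol), with the mean of the 4 pairs and its SE as a black bar. Most genes have symbols on both sides of 0, dashed lines mark 2-fold, and the 4 symbols beyond them belong to Mvk and Tm7sf2 at 24 h and to Mvd and Fads2 at 16 h.

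Over 2-fold differences were read from 1 array against 1 array and have no test. At 6 h and at 48 h 0 of 31 genes passed 2-fold, against 0.855% and 1.18% of probe-sets. At 16 h 2 genes did, Mvd and Fads2, against 0.738%, and at 24 h 2 did, Mvk and Tm7sf2, against 8.83%. Mvd had signals of 170.8, 151.2, 174.6 and 78.4 with T3 at 6, 16, 24 and 48 h, against 153.0, 72.4, 182.1 and 53.6 untreated. Fads2, the delta-6 desaturase, had 140.4, 206.5, 204.2 and 116.7 with T3, against 125.7, 95, 361.5 and 131.3 untreated. At 16 h the other Fads2 probe-sets that passed the filter gave log2 differences of 0.38 and 0.42, and that of Mvd gave 1.08. In both genes the untreated 16 h signal was below both signals of 24 h. On the 16 h arrays the 3' over 5' signal ratio of the Gapdh controls, a measure of RNA integrity, was 1.76 with T3 and 2.95 untreated, and that of Actb was 1.95 with T3 and 2.55 untreated. The part of RNA integrity in these differences was not tested.

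Mvk had signals of 37.4, 67.6, 57.0 and 32.9 with T3 at the 4 times, against 35.8, 37.3, 137.6 and 35.9 untreated. Tm7sf2 had 47.0, 63.1, 82.4 and 54.0 with T3, against 62.4, 54.5, 196.8 and 56.3 untreated. In both genes the untreated 24 h array was the highest of the 8. The fatty acid enzymes were lower with T3 in 6 of 8 genes at 24 h, against 45.7% of all probe-sets, with a median log2 difference of -0.44. Their summed signal there was 5730 with T3 and 7566 untreated. The sterol enzymes at 24 h were lower in 11 of 17 genes, with a median of -0.06, and all probe-sets had a median of 0.05. Summed astrocyte, oligodendrocyte and neuron signals were also higher on the untreated 24 h array (neurons 11617, against 8326 with T3). Fibroblast signals summed lower there (5284, against 7503 with T3). Not every glial marker was raised, and Gja1 and Pdgfra were slightly lower than with T3. The part of these cells in the differences was not tested.

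Median T3 differences of the sterol enzymes were -0.05, 0.19 and 0.04 at 6, 16 and 48 h, and those of the fatty acid enzymes 0.01, 0.04 and -0.12. Over the 4 pairs the medians were -0.02 for sterol enzymes (7 higher and 10 lower), 0.00 for regulators (3 and 3) and -0.10 for fatty acid enzymes (3 and 5), against 0.01 for all probe-sets. Centring each array on its median moved these to -0.08 (5 higher and 12 lower), -0.06 (1 and 5) and -0.16 (3 and 5), against -0.05 for all probe-sets, and at 48 h it turned the median of the sterol enzymes to -0.11, against -0.15 for all probe-sets.

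The regulators had the smallest median difference over time of the 3 lists. Srebf2 had signals of 86.3, 68.6, 63.7 and 55.0 with T3 at 6, 16, 24 and 48 h, against 55.1, 49.1, 109.1 and 47.7 in untreated cultures. With T3 its signal fell from each time to the next, while in untreated cultures it was highest at 24 h. The F test for any difference between time points did not call Srebf2 (adjusted p = 0.33). Insig1, a sterol-responsive brake on SREBP transport, had 138.1, 206.9, 197.4 and 207.0 with T3, against 154.4, 208.5, 234.7 and 146.8 untreated. Its relative Insig2 had 383.0, 496.1, 502.6 and 591.0 with T3, against 335.0, 629.1, 410.8 and 557.6 untreated. Both Insig genes had their lowest signals at 6 h under T3, and in untreated cultures Insig1 was lowest at 48 h and Insig2 at 6 h. Scap, the escort of the SREBP precursors, had 489.2, 454.7, 438.9 and 357.1 with T3, against 491.4, 536.7, 432.6 and 408.6 untreated. Stard4, a cytosolic sterol carrier, had 263.0, 285.3, 349.9 and 140.5 with T3, against 312.0, 253.1, 394.1 and 123.5 untreated, with its 2 lowest signals at 48 h (F test adjusted p = 0.002).

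Further genes of these pathways, from lists that do not overlap the 31, were read in the same fits. Of 5 further sterol genes that passed the filter, 10 genes of sterol export, uptake and LXR response, and 16 further fatty acid genes, 0, 0 and 0 passed the T3 test (0, 0 and 1 at an unadjusted p under 0.05, limma). With the hours 3 of the 10 export and uptake genes rose, against 10.6% of all probe-sets. They were Abca1, a cholesterol exporter (0.28 per doubling of the time on the log2 scale, adjusted p = 0.014), Apoe, the main lipid carrier of brain (0.37, adjusted p = 0.016), and Lrp1, a receptor for it (0.51, adjusted p = 0.008). Allowing for the shared batch, these were adjusted p = 0.060, 0.098 and 0.047 with an estimated correlation, so that the call of Lrp1 was kept, and 0 of all 18015 probe-sets passed when the time points were averaged (3409 at an unadjusted p below 0.05). Apoe had signals of 1274, 2004, 1605 and 2351 with T3 at 6, 16, 24 and 48 h, against 898.0, 1827, 2100 and 2393 untreated. Abcg1, another exporter, was over 2-fold higher with T3 at 24 h, at 141.1 with T3 and 67.6 untreated. Of these 10 genes 0 had all 16 and 24 h arrays above the rest, against 1.14% of all probe-sets. This order was found in 0 of the 5 further sterol genes. It was found in 1 of the 16 further fatty acid genes, Tecr.

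Of the 16 further fatty acid genes 3 rose with the hours and 1 fell, against 10.6% and 8.56% of all probe-sets. Me1, the malic enzyme that supplies NADPH, rose by 0.69 per doubling (adjusted p = 0.016), the citrate carrier Slc25a1 by 0.48 (adjusted p = 0.016) and Elovl1 by 0.48 (adjusted p = 0.044). Elovl2, an elongase of long polyunsaturated fatty acids, fell by 1.05 per doubling (adjusted p = 0.027). All 4 calls were lost with an estimated correlation (adjusted p = 0.053 for Me1, 0.057 for Slc25a1, 0.131 for Elovl1 and 0.094 for Elovl2) and on the mean of each time point. Elovl2 signals were 125.9, 32.2, 36.4 and 11.1 with T3, against 137.7, 36.7, 124.3 and 11.5 untreated, with the largest gap between treatments at 24 h. At that time Thrsp, a lipogenic T3 target in liver, had 34.6 with T3 and 117.8 untreated, and Fabp7, a fatty acid carrier of glia, had 1435 with T3 and 3423 untreated.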

How the data were processed

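The authors deposited MAS5 signal intensities, linear and 1 for each probe-set on each array, with every array scaled to the same trimmed mean. The submitters' processing notes name GCOS and MAS5. Of 45101 probe-sets, 64 controls were left out, and of 45037 measuring probe-sets 34945 have a single gene symbol, 932 have several and 9160 have none. Columns of values left unused: 0. Signals were floored at 1 before the log2, and the upper 40% by mean log2 signal entered the tests. The T3 effect was fitted in limma 3.58.1 (R 4.3.3) with a variance trend and the time point as a block. The methods give the pairing by shared cell batch, and since arrays of a time point also share their hours the values cannot check it. Time was fitted on log2 hours, or as a factor, with treatment as covariate, and a changing T3 effect on the 4 pair differences. The Benjamini-Hochberg adjustment ran over all tested probe-sets and calls were made at 0.05. Standard errors (SE) are moderated. The number of arrays limits the precision. The fits were tested on simulated data. Further processing used Python 3.11.15, pandas 2.3.3, numpy 2.4.6 and matplotlib 3.10.9.

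Every gene of the list is accounted for. Signals on all 8 arrays are given for genes that passed a test, exceeded 2-fold at a time point, set a rate or regulate the pathway, and for other genes of the pattern over time. In the further sterol and fatty acid lists, filtered genes that passed the T3 or log2 hours test or exceeded 2-fold are named, at most 8 a list. Cell type markers are given as counts or summed signals, and not every marker that passed a test or exceeded 2-fold is named. The genes, lists and rules were chosen with earlier results of these data known. Alternatives were quantile normalization, median centring, 32 added to the signal, other filters, no variance trend, no block, other forms of time, other probe-sets and leaving out each pair.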

Additional observations from a re-analysis of the deposited data

Results flagged for a closer look

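For 4 of the genes the T3 difference had opposite signs at 16 and 24 h and exceeded 2-fold at one of these times. Each rests on 1 pair of arrays per time, and the difference between the times was not tested. Mvk had log2 differences of 0.86 at 16 h and -1.27 at 24 h, a spread of 2.13. Fads2 had 1.12 at 16 h and -0.82 at 24 h, a spread of 1.94. Its other probe-sets that passed the filter gave 0.38 and 0.42 at 16 h, and -0.22 and -1.11 at 24 h. Tm7sf2 had 0.21 at 16 h and -1.26 at 24 h, a spread of 1.47. Mvd had 1.06 at 16 h and -0.06 at 24 h, a spread of 1.12.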

How the results depend on the processing

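The 0 genes that passed the T3 test remained 0 under every alternative run, no replicate block included (0 probe-sets, 76 at an unadjusted p under 0.05). Leaving out each pair gave 0 to 2 probe-sets, with 2 without the 24 h pair. The 3458 probe-sets that changed with log2 hours were 1633 with no filter, 392 when time points were random blocks, 1323 with hours on a linear scale, 0 with the mean of each time point or untreated arrays alone, and 0 to 7786 when each pair was left out (0 without the 6 h or the 48 h pair, 7786 without the 24 h pair). The 1 gene of the list that changed with hours, Scd1, became 2 under median centring, 0 to 6 when a pair was left out, and 0 with 32 added, no filter, no variance trend, a random block, the mean of each time point, linear hours, untreated arrays alone or second-brightest probe-sets. The slope of Scd1 lay between -0.15 without the 6 h pair and 1.42 without the 48 h pair. These counts rest on fewer arrays where some were left out; for the other settings the cause was not tested. The 13 genes higher at 16 and 24 h were 22 on T3 arrays alone, 20 on untreated arrays alone, 16 to 22 without one pair, which leaves fewer arrays to order (7.65% to 20.7% of all probe-sets, against 1.14% with every pair), and 11 under median centring. The 23 genes of the F test were 16 to 24 without one pair, with 17.5% to 63.2% of probe-sets, and 17 with no filter, with 12.7%. With 32 added to the signals, 0 genes exceeded 2-fold at any time. Low signals such as those of Mvk and Tm7sf2, and the lack of replicates, limit what single pairs show.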
